A study of Mus musculus with 6 samples.

Results

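The genes described here are 3 activator E2F factors (E2f1, E2f2 and E2f3), 2 atypical E2F factors (E2f7 and E2f8), 3 pocket protein genes (Rb1, Rbl1 and Rbl2) and 2 cyclin E genes (Ccne1 and Ccne2). They were chosen by gene symbol, and all 10 were found once each among the 50599 genes of the deposited table. The RNA was that of RAW264.7, an established line of mouse macrophages, infected with a retrovirus that carries ∆Raf-1:ER, a Raf-1 kinase whose activity is switched on by 4-hydroxytamoxifen (4-OHT), and selected with hygromycin B. The treated group had 3 samples (A, B and C) given 100 nM 4-OHT, which the study design calls senescent, and the vehicle group had 3 samples (A, B and C) given ethanol. Both were collected on day 3 after induction, both carried the construct, and both were without serum for the last 24 hours. No sample analysed here lacked the construct and was given 4-OHT, so effects of the drug and of the kinase cannot be told apart, and the labels do not say whether the replicates were separate cultures, so each p-value reflects the spread among these samples, which may be technical.

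E2F factors are the transcription factors that turn on genes for DNA replication when a cell passes from G1 into S phase. Pocket proteins bind E2F factors and hold those genes off until cyclin D and cyclin E kinases phosphorylate them. Cyclin E, the partner of the kinase Cdk2, is itself encoded by an E2F target gene, as are several E2F factors and Rbl1, so the circuit feeds on itself, while E2f7 and E2f8 encode repressors that bind DNA without a pocket protein and close it again. Loss of this activity is a textbook mark of senescence, and raised retinoblastoma protein activity is one of the ways in which cells leave the cycle for good.

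Because E2F factors are known to bind their own promoters, the promoter windows were read first. RefSeq windows (GRCm38.p6) of 300 bases, 250 before and 50 after an annotated start, were matched by symbol for 8 of the 10 genes, all but Rb1 and Ccne2. They were searched on both strands for the E2F words TTTCCCGC, TTTGGCGC, TTTCGCGC and TTTGCCGC and for the cell cycle homology region words TTTGAA and TTCGAA. A gene can have more than 1 window, and the 8 genes had 10. An E2F word was found for 4 of the 8 genes, in 4 of these 10 windows, against 2.26% of all 32851 mouse windows. The other 4, E2f1, E2f8, Rbl2 and Ccne1, held none, which says only that these letters are not in those windows. The E2f1 window (chr2:154569377-154569676, minus strand) lies wholly inside the gene span, which ends at 154569892. The sequence upstream of that span was therefore not searched for E2f1. No E2F word overlapped a cell cycle homology region word. Such a word was held by 4 of the 8 genes (E2f2 in a second window, E2f3, E2f8 and Rbl2), in 1 window each of the 10. Of all windows 19.2% held one. The 4 windows with an E2F word are shown because 3 of them belong to genes that were lower with 4-OHT (E2f2, E2f7 and Rbl1) and 1 to a gene that did not pass the test (E2f3). They lie at chr4:136172024-136172323 on the plus strand (E2f2), chr10:110745189-110745488 on the plus strand (E2f7), chr2:157204485-157204784 on the minus strand (Rbl1) and chr13:29986014-29986313 on the minus strand (E2f3). Each is written from 5′ to 3′ along the gene, with the E2F word, or its reverse complement, in capitals.
E2f2: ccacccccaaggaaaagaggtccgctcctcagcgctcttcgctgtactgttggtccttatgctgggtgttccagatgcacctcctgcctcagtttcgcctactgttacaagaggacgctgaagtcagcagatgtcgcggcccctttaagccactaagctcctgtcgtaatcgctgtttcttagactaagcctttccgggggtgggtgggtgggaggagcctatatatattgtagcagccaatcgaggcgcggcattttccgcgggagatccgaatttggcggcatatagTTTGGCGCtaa
E2f7: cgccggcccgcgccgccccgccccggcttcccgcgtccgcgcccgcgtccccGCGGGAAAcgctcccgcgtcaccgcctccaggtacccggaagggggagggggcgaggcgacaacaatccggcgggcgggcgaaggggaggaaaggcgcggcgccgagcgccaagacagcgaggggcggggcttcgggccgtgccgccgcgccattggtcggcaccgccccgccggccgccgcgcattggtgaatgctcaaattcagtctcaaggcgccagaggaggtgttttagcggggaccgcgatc
Rbl1: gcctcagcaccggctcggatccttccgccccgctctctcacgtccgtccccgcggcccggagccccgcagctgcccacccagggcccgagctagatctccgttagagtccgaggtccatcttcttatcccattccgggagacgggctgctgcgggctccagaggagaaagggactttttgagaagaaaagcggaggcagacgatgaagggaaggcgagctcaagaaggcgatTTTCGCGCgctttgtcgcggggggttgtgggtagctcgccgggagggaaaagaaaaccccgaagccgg
E2f3: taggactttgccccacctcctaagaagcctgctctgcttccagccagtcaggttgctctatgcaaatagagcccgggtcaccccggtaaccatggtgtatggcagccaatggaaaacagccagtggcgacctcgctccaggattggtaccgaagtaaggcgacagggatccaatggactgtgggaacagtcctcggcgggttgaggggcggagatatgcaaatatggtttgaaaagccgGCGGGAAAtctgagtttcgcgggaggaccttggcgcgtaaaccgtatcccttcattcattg
The word begins 40 bases after the start in E2f2, counting the start as 1, and 198, 18 and 11 bases before it in E2f7, Rbl1 and E2f3. Here the start is the annotated start of the RefSeq window. The E2f2 and E2f3 windows lie wholly upstream of the gene spans given below, so their starts differ from those spans. A match of this kind is a description of the sequence and was not tested as a binding site.

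With 4-OHT, 7 of the 10 genes were lower and 0 were higher. E2f2 had the largest fall, to 0.584 times its vehicle level, followed by E2f8, Rbl1 and E2f7 at 0.738 to 0.754 times, both cyclin E genes at 0.808 and 0.823 times, and Rb1 at 0.862 times. E2f1, E2f3 and Rbl2 did not pass the test. Values are the authors' normalized counts, which are gene counts divided by a size factor of the library, and the test was limma on log2(value + 1) with p-values adjusted by Benjamini-Hochberg over all 11828 genes tested, at a threshold of 0.05. Of those genes 65.5% passed in either direction, so a share of 7 in 10 called is near the background. The background was evenly split, with 32.5% lower and 33% higher, whereas the 7 called here all lay on the lower side. The median log2 change was -0.29 over the 10 genes and -0.02 over all tested genes. In the same 7 genes every 4-OHT library lay below every vehicle library, which was true of 35.7% of tested genes (70.7% had groups that did not overlap in either direction). The log2 change was below 0 in 8 of the 10, against 51.3% of tested genes. None of the 10 was changed 2-fold under these size factors, against 13% of tested genes.

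**Figure D1:**
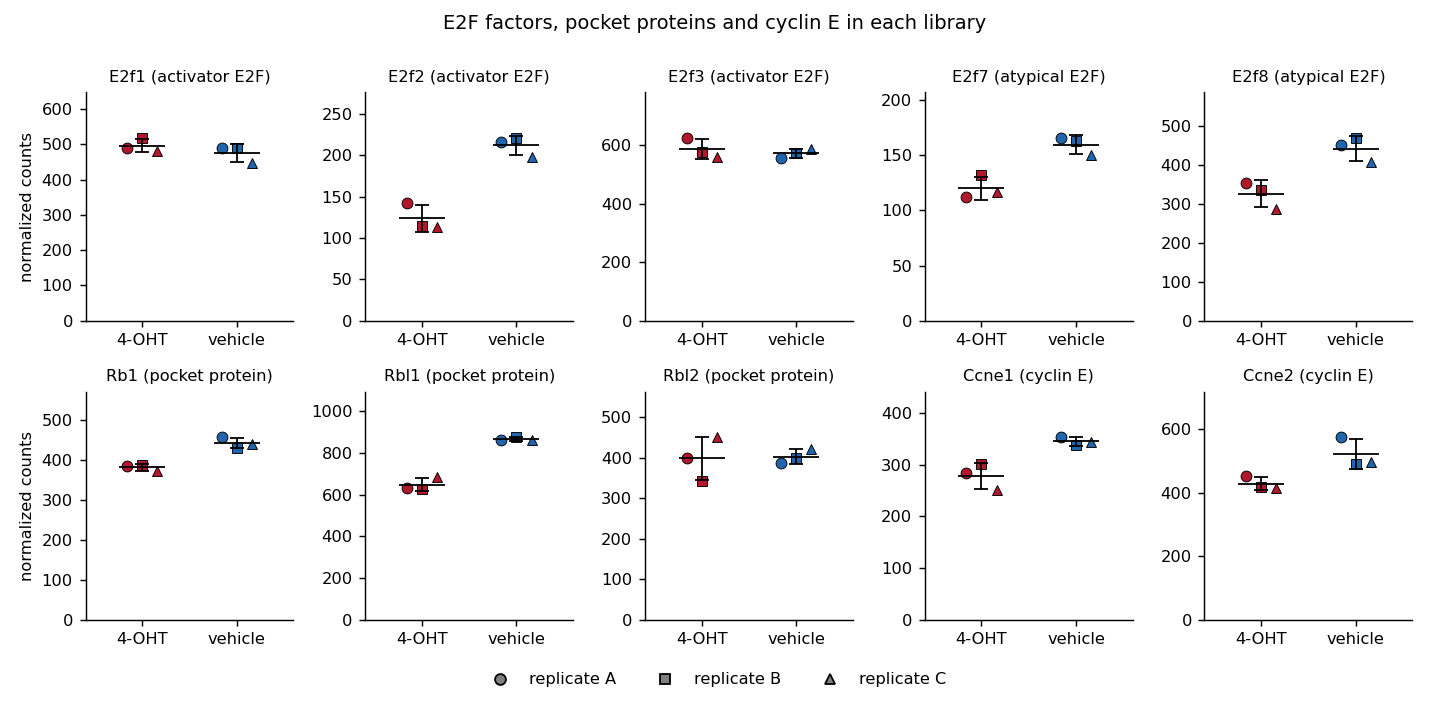
Normalized counts (vertical axis, from 0) of the 10 genes in each library, with 4-OHT in red and vehicle in blue and a symbol for each replicate letter; the black line and bar give the mean and SD of 3 libraries. The groups are apart in 7 genes and overlap in E2f1, E2f3 and Rbl2.

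Scaling the libraries by total counts moved all genes down by about the same amount. The 7 lower calls therefore kept their direction by construction, while E2f1 and E2f3, which did not pass, changed sign. Recovered reads ranged from 11629150 to 15943722 per library, but the normalized counts summed to 13752110, 14432740 and 14506026 in 4-OHT libraries A, B and C, against 11332925, 11691753 and 11492919 in vehicle libraries A, B and C. Dividing by total counts in place of the deposited size factors moved the median of all tested genes by -0.30 on the log2 scale. Under total-count scaling all 10 genes were called, all lower, where 74.5% of tested genes were called, 55.4% lower and 19.1% higher. The groups then did not overlap in any of the 10, as in 76% of tested genes, and E2f2 alone passed 2-fold, at -1.08 on the log2 scale. Relative to the median of all tested genes, the log2 difference under the deposited size factors was -0.76 for E2f2, -0.42 for E2f8, -0.40 for Rbl1, -0.39 for E2f7, -0.29 for Ccne1, -0.26 for Ccne2, -0.20 for Rb1, -0.01 for Rbl2, 0.05 for E2f3 and 0.08 for E2f1. In bulk RNA a lower level in each cell and fewer cells that carry the transcript cannot be told apart.

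**Figure D2:**
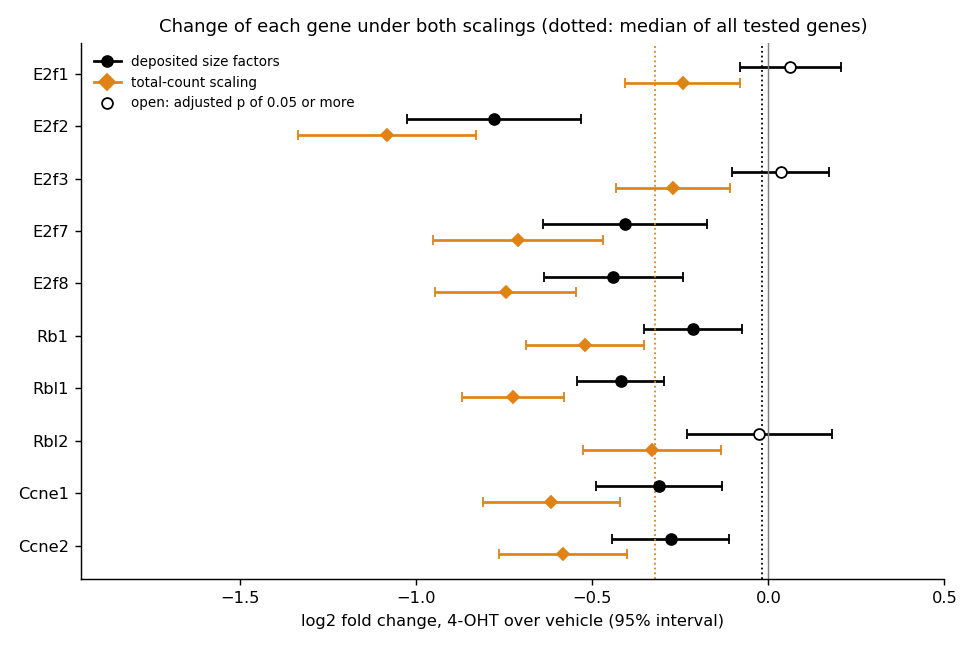
Log2 fold change of 4-OHT over vehicle (horizontal axis) with its 95% interval for each gene, in black with the deposited size factors and in orange with total-count scaling; dotted lines mark the median of all tested genes under each. Open symbols did not pass an adjusted p of 0.05, and all 10 orange symbols lie below 0.

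Of the 10 macrophage markers examined, 9 had at least 10 reads in every library, and Mertk had almost none (0 to 2.27 normalized counts). Their sum was 89053 to 111289 normalized counts in 4-OHT libraries and 118066 to 121209 in vehicle libraries, without overlap. Lyz2 alone made up 49.9% of that sum over all libraries, so the sum mostly follows the most abundant markers. Single markers differed in direction: Lyz2 averaged 42932 ± 5596 with 4-OHT and 67465 ± 2153 with vehicle, Adgre1 386 ± 68.7 with 4-OHT and 709 ± 59.8 with vehicle, and Itgam 2117 ± 73.9 with 4-OHT and 458 ± 8.68 with vehicle (SD, n = 3 each). Means were also lower with 4-OHT for Csf1r and Spi1. They were higher with 4-OHT for Cd68 (13108 against 9902), Cd14 (19998 against 14227), Ptprc (8445 against 5227) and Fcgr1 (146 against 101, with overlapping groups). Summed markers of fibroblasts and of T and B lymphocytes stayed at or below 7.93 normalized counts in every library. The 7 markers of epithelial and endothelial cells summed to 62.3 to 88.5 normalized counts in 4-OHT libraries and 1.95 to 7.21 in vehicle libraries, mostly Kdr (30.6, 40.4 and 32.9 in 4-OHT libraries A, B and C, against 0, 3.96 and 1.44 in vehicle libraries A, B and C) and Cdh5, while the keratin genes Krt8 and Krt18 were at 0 in all 6 libraries. The part of these markers in the results was not tested.

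Among the activators, which switch on S phase genes, E2f2 (ENSMUSG00000018983.9, chromosome 4, 136172394 to 136196057, GRCm38/mm10) had 143, 115 and 113 normalized counts in 4-OHT samples A, B and C, against 216, 221 and 198 in vehicle samples A, B and C. Every 4-OHT value lay well below every vehicle value, with a gap of 26.2% of the vehicle mean between the nearest libraries. The log2 change was -0.78 ± 0.11 (SE, adjusted p = 8.96e-05), and 6.68% of tested genes had a lower one. These means rest on 331 reads in the 4-OHT libraries and 720 reads in the vehicle libraries.

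E2f1 (ENSMUSG00000027490.17, chromosome 2, 154559407 to 154569892), the founding member of the family, had 490.5, 518 and 482 normalized counts in 4-OHT samples A, B and C, against 490.2, 489.5 and 448 in vehicle samples A, B and C. The groups overlapped, and vehicle replicate C was the lowest of the 6. The log2 change was 0.06 ± 0.07 (SE, adjusted p = 0.417), with a 95% interval of the ratio from 0.945 to 1.153. E2f3 (ENSMUSG00000016477.17, chromosome 13, 29906575 to 29985668), which acts beside E2f1 in S phase entry, had 624, 577 and 559 normalized counts in 4-OHT samples A, B and C, against 555, 572 and 588 in vehicle samples A, B and C. The groups overlapped here too, and 4-OHT replicate A was the highest. The log2 change was 0.04 ± 0.06 (SE, adjusted p = 0.634), with an interval of the ratio from 0.932 to 1.13, and without 4-OHT replicate A it was -0.01. Both signs turned under total-count scaling, where E2f1 was at -0.24 ± 0.08 (adjusted p = 0.00811) and E2f3 at -0.27 ± 0.08 (adjusted p = 0.00386), each a smaller fall than the median of all tested genes under that scaling (-0.32).

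The atypical factors carry a pair of DNA-binding domains and repress the genes that the activators turn on. E2f8 (ENSMUSG00000046179.17, chromosome 7, 48866429 to 48881596) had 355, 336 and 288 normalized counts in 4-OHT samples A, B and C, against 450.2, 469 and 407 in vehicle samples A, B and C. The highest 4-OHT library, A, stayed below the lowest vehicle library, C. E2f8 changed by -0.44 ± 0.09 on the log2 scale (SE, adjusted p = 0.00113). E2f7 (ENSMUSG00000020185.16, chromosome 10, 110745439 to 110787384) had 112, 132 and 117 normalized counts in 4-OHT samples A, B and C, against 166, 163 and 149.9 in vehicle samples A, B and C. It was the gene with the fewest reads of the 10, at 323 over the 4-OHT libraries and 543 over the vehicle libraries, and its groups were apart by 11.1% of the vehicle mean. E2f7 changed by -0.41 ± 0.11 on the log2 scale (SE, adjusted p = 0.00542).

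Among the pocket proteins, Rbl1 (ENSMUSG00000027641.13, chromosome 2, 157145893 to 157204534), which encodes p107, the pocket protein most abundant in cycling cells, had 634, 626 and 687 normalized counts in 4-OHT samples A, B and C, against 863, 876 and 862 in vehicle samples A, B and C. The vehicle libraries were nearly equal, with an SD of 0.899% of their mean, and all 3 4-OHT libraries lay below them. The log2 change was -0.42 ± 0.06 (SE, adjusted p = 5.13e-05). Rb1 (ENSMUSG00000022105.6, chromosome 14, 73183673 to 73325822), the retinoblastoma tumour suppressor, had 385, 387 and 371 normalized counts in 4-OHT samples A, B and C, against 456, 430.2 and 439.7 in vehicle samples A, B and C. The groups did not overlap, but the change was the smallest of the 7 called, at -0.21 ± 0.06 on the log2 scale (SE, adjusted p = 0.0107). Rb1 did not pass with DESeq2 on recovered reads (adjusted p = 0.0725), nor in the authors' deposited table (adjusted p = 0.0761 in that table). Among the alternatives run for Rb1 the adjusted p ranged from 1.21e-07 to 0.0725. That range includes total-count scaling, which moved all genes down by about the same amount and gave a limma adjusted p of 6.93e-06.

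Rbl2 (ENSMUSG00000031666.15, chromosome 8, 91070057 to 91123844) encodes p130, the pocket protein that joins E2F4 in the repressive DREAM complex of resting cells. It had 399.8, 343 and 450.0 normalized counts in 4-OHT samples A, B and C, against 386, 399.5 and 422 in vehicle samples A, B and C. The 4-OHT libraries held both the lowest and the highest value and spread the most of the 10 genes, with an SD of 13.5% of their mean. The log2 change was -0.03 ± 0.09 (SE, adjusted p = 0.826), with an interval of the ratio from 0.852 to 1.13. Under total-count scaling, where the median of all tested genes was -0.32, the log2 change of Rbl2 was -0.33 ± 0.09 (adjusted p = 0.00352). Its sign was not settled: it was 0.08 without 4-OHT replicate B, -0.12 without 4-OHT replicate C and 0.01 without vehicle replicate C, none of them called.

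Cyclin E1 and cyclin E2 both activate Cdk2 at the start of S phase. Ccne1 (ENSMUSG00000002068.16, chromosome 7, 38097984 to 38107534) had 283, 300.4 and 252 normalized counts in 4-OHT samples A, B and C, against 353, 337 and 344 in vehicle samples A, B and C. Ccne2 (ENSMUSG00000028212.16, chromosome 4, 11191351 to 11204779) had 453, 419 and 415 normalized counts in 4-OHT samples A, B and C, against 575, 492 and 497 in vehicle samples A, B and C. Neither gene's groups overlapped, and the highest vehicle value of both was in replicate A. The log2 changes were -0.31 ± 0.08 for Ccne1 (SE, adjusted p = 0.00559) and -0.28 ± 0.08 for Ccne2 (SE, adjusted p = 0.00719). Over the 10 genes the SD between replicates was 2.32% to 13.5% of the mean with 4-OHT and 0.899% to 8.94% with vehicle, where counting error alone would give 4.15% to 9.64% and 3.18% to 7.43%. Reads in a library ranged from 99 to 1196 per gene.

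Levels were compared between genes as normalized counts per kilobase of merged exons in GENCODE M21, which takes all isoforms together and so understates genes with long rare exons. With 4-OHT the order per kilobase was E2f1 (157 ± 5.96, SD, n = 3), Ccne2 (123 ± 5.97), Rbl1 (108 ± 5.51), E2f3 (108 ± 6.22), Ccne1 (105 ± 9.29), Rb1 (63.3 ± 1.47), E2f8 (59.9 ± 6.33), Rbl2 (52.6 ± 7.08), E2f2 (25.3 ± 3.40) and E2f7 (13.4 ± 1.16). Neighbours whose 4-OHT libraries overlapped were Rbl1 and E2f3, E2f3 and Ccne1, Rb1 and E2f8, and E2f8 and Rbl2. With vehicle the order was E2f1 (151 ± 7.73, SD, n = 3), Ccne2 (149 ± 13.3), Rbl1 (145 ± 1.30), Ccne1 (129 ± 2.93), E2f3 (105 ± 3.01), E2f8 (81.2 ± 5.80), Rb1 (73.5 ± 2.18), Rbl2 (53.2 ± 2.39), E2f2 (43.4 ± 2.43) and E2f7 (17.7 ± 0.939). There the overlapping neighbours were E2f1 and Ccne2, Ccne2 and Rbl1, and E2f8 and Rb1. The gene span of E2f3 in the table differs from that in GENCODE M21, so its length, matched by identifier without version, is less certain than those of the other 9 genes.

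Ratios between genes within a library do not depend on the scaling of libraries. Per kilobase, E2f2 made up 9.75%, 7.99% and 8.33% of the 3 activators in 4-OHT samples A, B and C, against 14.7%, 14.8% and 14.0% in vehicle samples A, B and C. E2f1 made up 54.2% ± 2.05 with 4-OHT and 50.3% ± 1.38 with vehicle (SD, n = 3 each), and both shares stood apart between the groups, that of E2f1 narrowly (lowest 4-OHT library 51.9%, highest vehicle library 51.5%), while those of E2f3 overlapped. Unlike the shares, the sum of the 3 activators does depend on the scaling of libraries. Under the deposited size factors it was 291 ± 10.7 per kilobase with 4-OHT and 299.5 ± 7.71 with vehicle (SD, n = 3 each), and these sums overlapped. Under total-count scaling each of the 3 activators was lower with 4-OHT, without overlap. Of all tested genes 55.4% were called lower under that scaling, and in 76% the groups did not overlap. Among the pocket proteins, Rbl1 made up 47.5%, 48.8% and 48.6% in 4-OHT samples A, B and C, against 53.2%, 54.0% and 52.7% in vehicle samples A, B and C. Rbl2 took 23.4% ± 2.05 with 4-OHT and 19.6% ± 0.808 with vehicle (SD, n = 3 each), with no overlap, and the share of Rb1 overlapped. The shares of E2f7 and E2f8 and those of Ccne1 and Ccne2 overlapped between the groups, with Ccne1 at 46.0% ± 2.20 of cyclin E per kilobase with 4-OHT and 46.5% ± 1.66 with vehicle.

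**Figure D3:**
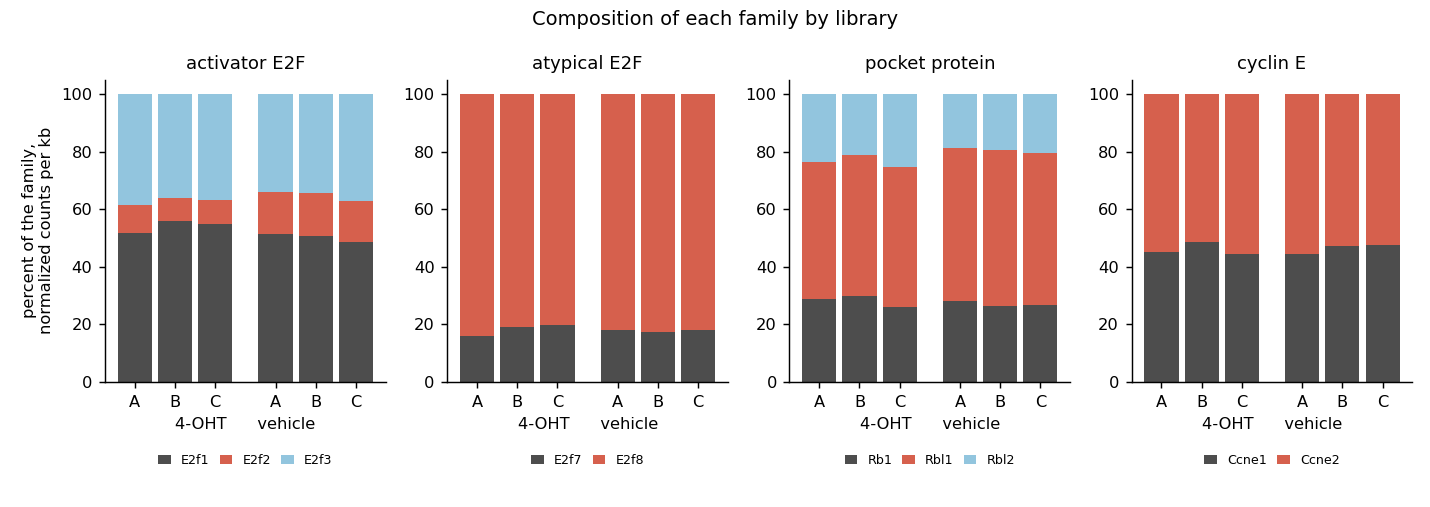
Share of each gene in its family (vertical axis, percent of normalized counts per kilobase) in each library, 4-OHT on the left and vehicle on the right of each panel. E2f2 and Rbl1 take smaller shares in all 3 4-OHT libraries, while E2f7 with E2f8, and Ccne1 with Ccne2, have shares that overlap between the groups.

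The change of each gene was set against that of its relatives in 8 pairs, as the difference of their log2 values in each library. An exact permutation test of 3 against 3 samples, two-sided, cannot give a p below 0.1, and 4 pairs reached it without overlap between groups (adjusted p = 0.20 over the 8 pairs by exact permutation), so none passed. The difference E2f1 minus E2f2 was larger with 4-OHT, at 2.01, against 1.16 with vehicle, a change of 0.84 ± 0.12 (SE). E2f2 minus E2f3 was -2.24 with 4-OHT and -1.43 with vehicle, a change of -0.81 ± 0.09. Rbl1 minus Rbl2 was 0.71 with 4-OHT and 1.11 with vehicle, a change of -0.39 ± 0.09. Rb1 minus Rbl1 was -0.77 with 4-OHT and -0.97 with vehicle, a change of 0.20 ± 0.07. The groups overlapped for Ccne1 minus Ccne2, with a change of -0.03 ± 0.09, for E2f7 minus E2f8, at 0.03 ± 0.12, for E2f1 minus E2f3, at 0.03 ± 0.09, and for Rb1 minus Rbl2, at -0.19 ± 0.14.

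Around these genes, the remaining E2F factors and the DP proteins that pair with E2F factors numbered 5, of which 3 were lower and 2 did not pass, and their median log2 change was -0.28. The share called, 60%, stands beside 65.5% of all tested genes, and the share lower beside 32.5%. Tfdp2, a DP partner, was at 115 ± 10.96 normalized counts with 4-OHT and 247 ± 7.41 with vehicle (SD, n = 3 each), a log2 change of -1.10 ± 0.10 (SE, adjusted p = 2.20e-06). Tfdp1, the main DP partner, changed by -0.53 and E2f6, a repressor that works without pocket proteins, by -0.28. E2f4, the factor most often held by p130, was at -0.12 ± 0.07 (SE, adjusted p = 0.127) and E2f5, its close relative, at -0.20 ± 0.11 (SE, adjusted p = 0.123). Under total-count scaling all 5 were lower, against 55.4% of tested genes.

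A list of 8 genes held subunits of the DREAM and MuvB complexes and genes that act with them. These complexes repress cell cycle genes in resting cells and activate mitotic ones later. Of the 8 genes, 4 were lower, 2 higher and 2 not called, with a median of -0.25. At 75% called, they were near the 65.5% of all tested genes. Mybl2, the B-Myb subunit of the activating form, was at 163 ± 5.54 normalized counts with 4-OHT and 358 ± 26.9 with vehicle (SD, n = 3 each), a log2 change of -1.13. Foxm1, which drives mitotic genes with that complex, changed by -0.82. Lin54, the DNA-binding subunit, moved the other way, at 699 ± 68.9 normalized counts with 4-OHT and 369 ± 6.39 with vehicle, a log2 change of 0.92. Under total-count scaling 6 were lower and 1 higher, where 55.4% of tested genes were lower and 19.1% higher.

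The 10 genes of cyclins, kinases and regulators upstream of pocket proteins divided into 5 lower, 3 higher and 2 not called. Their median was -0.15. Of these, 80% were called, against 65.5% of all tested genes. With total-count scaling 7 were lower and 1 was higher, against 55.4% lower and 19.1% higher over all tested genes. Ccna2 (cyclin A2), which follows cyclin E on Cdk2 and is an E2F target, changed by -1.15, Ccnh, a subunit of the CDK-activating kinase, by -0.59, and Ccnd1 (cyclin D1) by 0.95. Cdk2, the partner of cyclin E, chosen after its value was seen, was at 805 ± 66.3 normalized counts with 4-OHT and 789.9 ± 62.3 with vehicle, and was not called (adjusted p = 0.763, or 0.00341 and lower under total-count scaling). Among 7 CDK inhibitors 4 were tested, and 1 was higher, 1 lower and 2 not called, at a median of 0.06, so 50% were called against that same 65.5%. With total-count scaling 1 of the 4 was higher and 2 were lower. Cdkn1c, Cdkn2a and Cdkn2b, named after their values were seen, had 0 reads in all 6 libraries and were not tested. Cdkn1a (p21), an inhibitor of cyclin E with Cdk2, changed by 0.94, Cdkn2c by -0.63, and Cdkn1b (p27) was at 0.06 (adjusted p = 0.491), or -0.25 under total-count scaling.

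Ubiquitin ligase and partner genes that set the turnover of cyclin E, E2F factors and p27 were lower in 5 of 10 cases, higher in 2 and not called in 3, with a median of -0.18. The 70% called is near the 65.5% of all tested genes. Under total-count scaling 7 were lower and 0 higher, beside 55.4% and 19.1% of tested genes. Cks1b and Skp2, which together direct p27 to degradation, changed by -0.75 and -0.72, and Ccnf (cyclin F), the subunit of a ligase that degrades activator E2F factors, by -0.42. Fbxw7, which marks cyclin E for degradation and was chosen after its value was seen, was at 633 ± 4.77 normalized counts with 4-OHT and 502 ± 52.8 with vehicle, a log2 change of 0.34 ± 0.08 (SE, adjusted p = 0.00199), or 0.03 and not called under total-count scaling.

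Of 40 G1/S genes known as E2F targets, 34 were lower, 2 higher and 4 not called, against 32.5% of all tested genes lower, and the median log2 change was -0.52. The targets Mcm6, a subunit of the replicative helicase, Uhrf1, which maintains DNA methylation, and Hells, a chromatin remodeller, changed by -0.81, -0.83 and -0.83. Pola2, a subunit of DNA polymerase alpha, chosen after its value was seen, was higher, at 0.16 ± 0.06 (SE, adjusted p = 0.0366), and was not called under total-count scaling (-0.14), where 38 of the 40 were lower, against 55.4% of tested genes.

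**Figure D4:**
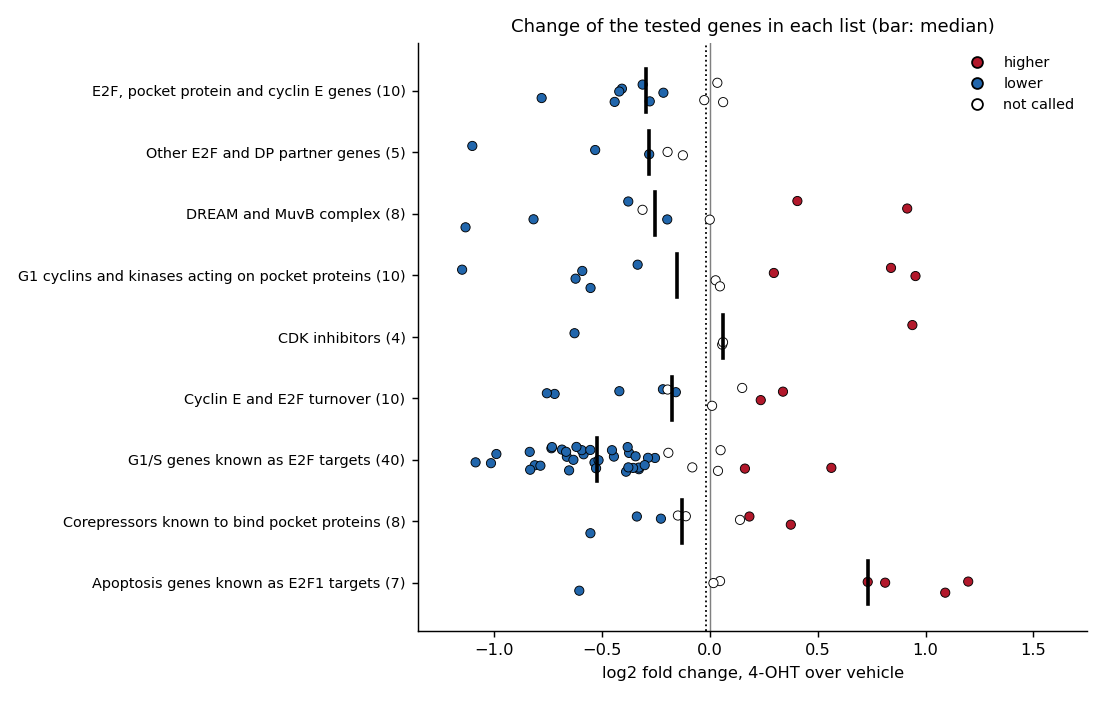
Log2 fold change of 4-OHT over vehicle (horizontal axis, deposited size factors) of each tested gene in the 10-gene group and in 8 related lists, with the number tested in brackets; red was higher, blue lower and white not called, and bars mark medians. The E2F targets have the lowest median, at -0.52, and the apoptosis genes the highest, at 0.73.

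For 9 of the 10 genes, the tested genes whose profile over the 6 libraries lay nearest, by Euclidean distance of log2 values after subtracting each gene's mean, were Tfrc for E2f1, Traip for E2f2, Nedd8 for E2f3, Zmym3 for E2f7, Utp11 for Rb1, Rsl1d1 for Rbl1, Mettl10 for Rbl2, Nkiras2 for Ccne1 and Phax for Ccne2. Among these 9 the distances ranged from 0.0429 for Rb1 with Utp11 to 0.109 for E2f2 with Traip. The change of Traip was -0.81, beside -0.78 for E2f2. Nearness over 6 libraries in 2 groups is a description and says nothing of shared control.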

How the data were processed

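Messenger RNA was sequenced in 3 4-OHT and 3 vehicle samples. The deposited signal is 1 value per gene and sample. Per the submitters' processing notes, bcl2fastq 2.20, Trimmomatic 0.35, STAR 2.5.1b, RSEM and DESeq2 1.18.1 were used with builds GRCm38 and mm10, and the role of each, the annotation, strand handling and multi-mapped reads are not given in the sources used here. Every positive value in each column could be divided by 1 number per library to give whole reads (100% of positive values, tolerance 1e-06), as counts over a size factor would; on these reads edgeR called 7731 genes. That number for vehicle replicate B, 0.989, is close to 1, so a count model was also run without that library. The log2 fold change and adjusted p-value columns of the deposited table are the authors' own and were used only for comparison.

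Of 50600 lines after the header 1 held no values. Genes were kept by edgeR 4.0.16 filterByExpr (minimum count 10), and all 10 genes described were among the 11828 kept. limma 3.58.1 in R 4.3.3 with a mean-variance trend and group as the only term was fitted to log2(value + 1) over all kept genes, two-sided, and was checked on simulated counts. Log2 changes are 4-OHT over vehicle on that scale. The edgeR and DESeq2 1.42.0 count models, total-count scaling, other pseudocounts and filters, a term for the replicate letter and leaving out each library were alternatives. The 10 genes, the 8 lists (96 genes) and the tests were chosen with earlier results of these data known. The text names all 10 genes, every other E2F and DP gene, the up to 3 genes of each list with the smallest p, and the gene nearest to each of the 10, while others are said to be chosen after their values were seen. Some genes that the rule or a small count would name are not reported here. Precision is limited by 99 to 1196 reads per library for each of the 10 genes, and intervals cover the spread between samples only.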

Additional observations from a re-analysis of the deposited data

How the results depend on the processing

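The 7 lower calls among the 10 genes held under the deposited size factors with pseudocounts of 0.5 and 5. They also held there with no filter, with a mean of 50 or more and without each library in turn (7 to 7 called). The count models scaled the recovered reads by factors of their own. With edgeR the 7 calls held (also without vehicle replicate B, an alternative chosen after seeing the data), while DESeq2 called 6, all but Rb1. Over all alternatives the log2 change lay between -1.08 and -0.72 for E2f2, -0.72 and -0.39 for Rbl1, -0.75 and -0.35 for E2f8, and -0.71 and -0.36 for E2f7. Total-count scaling, with or without a term for the replicate letter, called all 10 lower and turned E2f1 to -0.24, E2f3 to -0.27 and Cdkn1b to -0.25, by construction, since it moves all genes by about the same amount. It called 5 of the other E2F and DP genes in place of 3. Genes called overall numbered 6856 to 9141 over the alternatives that keep all 6 libraries, and 7103 to 7871 without each library in turn, against 7750. These counts rest on different numbers of tested genes where the filter differs. With a mean of 50 or more 6856 of 9787 were called, with no filter 8232 of 23917, and in the main fit 7750 of 11828. Without each library in turn, the corepressors gave 3 to 6 calls against 5 (3 without vehicle replicate A; the cause was not tested), and the changes in pair differences ranged from -0.11 to 0.014 for Ccne1 minus Ccne2, from -0.034 to 0.14 for E2f7 minus E2f8 and from -0.037 to 0.081 for E2f1 minus E2f3, so those signs are not settled. Replicate letters did not meet the rule for pairing: deviations from group means correlated by 0.109, 0.0363 and 0.120 for A, B and C, under 0.1 for B, although every sample correlated best with its own letter, which is a hint from the data and not the design. With the letter as a replicate block 7972 genes and 7 of the 10 were called.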

Other observations

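Beyond the circuit itself, genes of apoptosis known as E2F1 targets were higher in 4 of 7 tested cases, lower in 1 and not called in 2, with a median log2 change of 0.73. The share called, 71.4%, is near the 65.5% of all tested genes, of which 33% were higher and 32.5% lower. With libraries scaled to total counts, 4 of the 7 were higher and 3 lower, where 19.1% of tested genes were higher and 55.4% lower. Pmaip1, which encodes the pro-apoptotic protein Noxa, was at 2683 ± 279 normalized counts with 4-OHT and 1166 ± 27.5 with vehicle (SD, n = 3 each), a log2 change of 1.20 ± 0.07 (SE, limma adjusted p = 4.83e-08). Bcl2l11, which encodes Bim, changed by 1.09 and Casp8, an initiator caspase, by 0.81. Trp73, the p53 relative in this list, had too few reads to be tested.

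Corepressors known to bind pocket proteins were lower in 3 of 8 cases, higher in 2 and not called in 3, with a median of -0.13. Their share called, 62.5%, and share lower, 37.5%, were near the 65.5% and 32.5% of all tested genes. Under total-count scaling 5 were lower and 0 higher, beside 55.4% and 19.1% of tested genes. Suv39h1, a histone methyltransferase of heterochromatin, was at 341 ± 20.4 normalized counts with 4-OHT and 500.2 ± 30.2 with vehicle (SD, n = 3 each), a log2 change of -0.55. Rbbp7, a histone-binding protein of deacetylase complexes, changed by -0.34 and Arid4b, which bridges pocket proteins to deacetylases, by 0.38. Arid4b was at 0.07 and not called under total-count scaling.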
